A study of Hapsidospora chrysogena with 9 samples.

Results

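The comparison described here sets an AcmybA overexpression strain of Hapsidospora chrysogena against the wild type, in 6 of the 9 RNA-seq libraries of the study. The fungus, also called Acremonium chrysogenum, is the industrial source of cephalosporin C, a beta-lactam antibiotic. AcmybA encodes a Myb transcription factor, and the study's title names it as a repressor of spore formation and of antibiotic production. Mycelium of the wild type, of the overexpression strain and of an AcmybA knockout was grown in LPE medium and taken at 48, 72 and 96 h, with 1 library for each strain and time. The 3 overexpression and 3 wild-type libraries were chosen by their labels and paired by time. The 3 knockout libraries do not enter the strain difference, but they add to the residual spread behind each p-value. Their values are given only where they help to place a gene or a set of genes. The promoter that drives AcmybA, the number of clones and the number of cultures behind a library are not stated in the labels, and all 3 overexpression libraries may come from 1 transformant.

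Myb proteins bind DNA through helix-turn-helix repeats and switch target genes on or off. In filamentous fungi several Myb proteins take part in the change from vegetative growth to spore formation. Cephalosporin C and other secondary metabolites are made by enzymes whose genes often lie side by side in the genome and are transcribed together. The deposited table lists 8899 genes by protein identifier, and the sources used here do not pair these with gene names. Genes are therefore described by identifier, level and pattern, and the transcript of AcmybA itself was not analysed here.

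Levels are FPKM, fragment counts scaled to transcript length and to the mapped fragments of the library. A gene was tested when it reached 1 FPKM in at least 3 of the 6 libraries, which held for 8372 genes. Differences are overexpression minus wild type in log2(FPKM + 1), averaged over the 3 times, and understate the change of low genes. A gene is called higher or lower when the limma test, adjusted by Benjamini-Hochberg over all tested genes, gave p under 0.05. Summed FPKM was 852915 to 1124540 per library. From the steps between low values, the overexpression libraries were estimated to be 1.77 to 2.39 times as deep as wild type at 96 h. The next-best estimates for overexpression at 48, 72 and 96 h were 3.53, 1.20 and 1.11. The other wild-type libraries were estimated to be 0.927 and 0.953 times as deep, and the knockout libraries 2.39, 0.829 and 0.895 times. Genes listed at 0 numbered 311 to 402 in overexpression and 424 to 503 in wild type. Depth and strain cannot be told apart here. Since each strain and time has 1 library, a p-value sets the strain difference against the residual left after strain and time have been added, not against the spread between repeated cultures.

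More genes were called lower than higher in overexpression, while looser measures counted more genes higher. The test called 284 genes, 3.39% of those tested. Of these 219 were lower, 2.62% of those tested, and 65 higher, 0.776%. The lower genes had a median log2 difference of -1.79, with 208 at least 1 in size, 85 at least 2 and 37 at least 3. The higher genes had a median of 1.48, with 60 at least 1, 20 at least 2 and 3 at least 3. Over all tested genes the median was 0.0822. At an unadjusted p under 0.05 the order was the other way, with 837 genes higher and 783 lower. Likewise, every overexpression library lay above every wild-type library for 927 genes (11.1%) and below for 710 (8.48%). Among genes above 0 in all 6 libraries, called differences ran from -6.39 to 3.90.

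**Figure D1:**
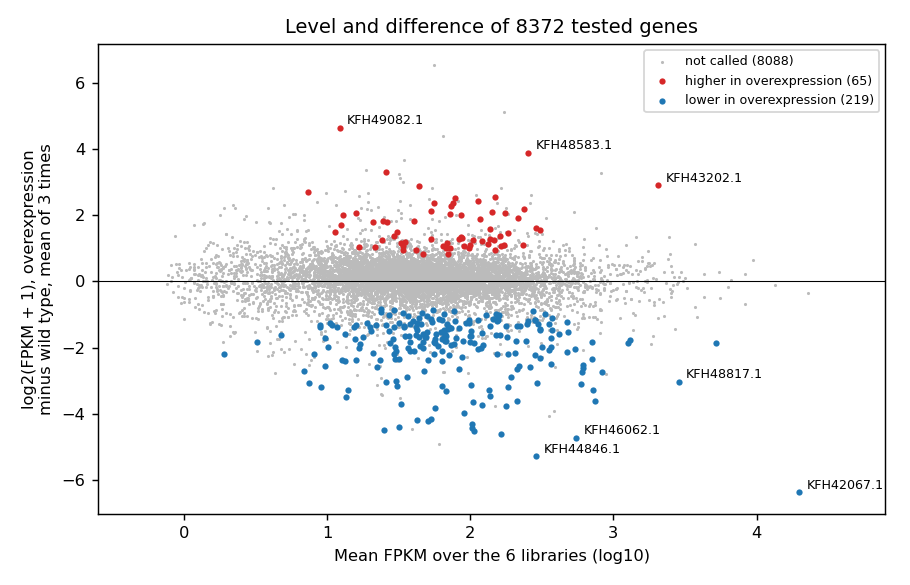
Mean FPKM over the 6 wild-type and overexpression libraries (log10, x axis) against the log2 difference, overexpression minus wild type (y axis), for 8372 tested genes; blue and red points are the 219 lower and 65 higher genes called by limma. The lower genes reach a log2 difference of -6.39 at KFH42067.1 and include abundant transcripts, while the higher genes lie mostly below 3.

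The counts rest on few libraries. Without wild type at 48, 72 or 96 h, 94, 12 and 38 genes were lower and 17, 4 and 9 higher. Without overexpression at 48, 72 or 96 h, 163, 20 and 87 were lower and 80, 1 and 15 higher. Without the knockout at 72 h, 144 were lower and 46 higher, and without it at 96 h 40 were higher. Fitted to the 6 libraries alone, which leaves the residual to these strains, the test called 148 lower and 40 higher, and 127 and 29 of these were among the genes above. No called gene changed direction in any of these fits, but this was nearly fixed in advance. Every called gene had the same sign at all 3 times, and leaving out knockout libraries does not alter the difference.

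Classes by size of difference, which need no residual, had more lower genes where all 3 times had to pass. A log2 difference of at least 1 at all 3 times was found for 228 lower genes, 2.72% of those tested, and 70 higher genes, 0.836%. At a log2 difference of at least 2 at all 3 times there were 55 lower genes (0.657%) and 5 higher genes (0.0597%). At a single time the directions were closer in number, and at 48 h the higher genes were more. At 48 h, 736 genes were lower by at least 1 (8.79%) and 847 higher (10.1%). At 72 h these were 638 (7.62%) and 453 (5.41%), and at 96 h 763 (9.11%) and 622 (7.43%).

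The 3 times share no library, so a difference seen at one time can be read again at the others. At 48 h, 221 genes (2.64%) were lower by at least 2 on the log2 scale, and of these 85.1% were below wild type at 72 h and 83.7% at 96 h. Their median log2 differences were -1.63 and -1.29 at those times, and 35.3% and 32.6% of them were again lower by at least 2. At 48 h, 205 genes (2.45%) were higher by at least 2, and of these 66.3% were above wild type at 72 h and 61.5% at 96 h. Their median log2 differences were 0.36 at both times, and 12.7% and 9.76% were again higher by at least 2. Over all tested genes 54.8% were above wild type at 72 h and 50.8% at 96 h. The later pair of times was closer: of the 173 genes (2.07%) lower by at least 2 at 72 h, 96.5% were below wild type at 96 h, with a median of -2.15. Of the 87 genes (1.04%) higher by at least 2 at 72 h, 72.4% were above wild type at 96 h, with a median of 1.01. At 96 h itself 196 genes (2.34%) were lower and 116 (1.39%) higher by at least 2. Whether lower and higher genes differed in this persistence was not tested.

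Across all 8372 genes, the difference at 48 h correlated with that at 72 h at r = 0.395 and with that at 96 h at r = 0.290. The differences at 72 and 96 h correlated at r = 0.565. Genes are not independent replicates and the points at 1 time share the same pair of libraries, so these values describe the libraries.

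**Figure D2:**
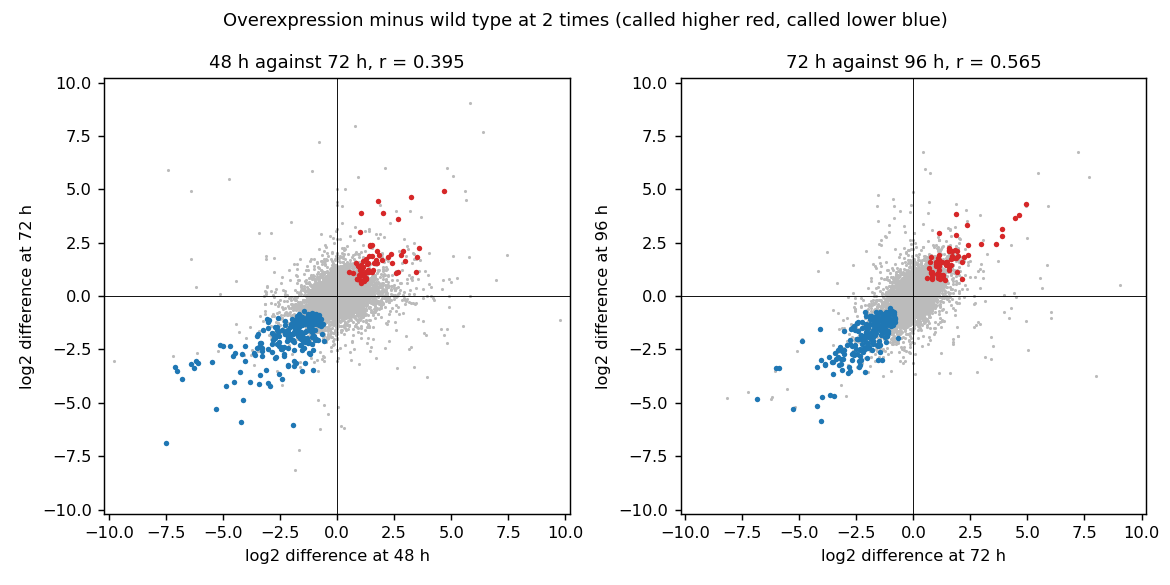
The log2 difference, overexpression minus wild type, at 48 h against 72 h (left, r = 0.395) and at 72 h against 96 h (right, r = 0.565), with 1 point for each of 8372 genes; called lower genes are blue and called higher genes red. Called genes have the same sign at each time, as nearly every call must, and the cloud is narrower between the later times.

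The strongest fall was that of KFH42067.1, with wild-type levels of 93099.7, 18436 and 7115 FPKM at 48, 72 and 96 h. In overexpression it was at 516, 157 and 254 FPKM. The lowest wild-type library thus lay far above the highest overexpression library. The log2 difference was -6.39 (SE 0.79, limma adjusted p = 0.0128), and by time it was -7.49, -6.86 and -4.80. Leaving out overexpression at 72 h, or wild type at 72 or 96 h, ended the call (adjusted p 0.0560 to 0.0840). In the knockout the transcript was at 34236, 14243 and 1212 FPKM, so it declined with time in wild type and knockout alike.

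KFH44846.1 fell by much the same factor at all 3 times, and KFH46062.1 fell less at 72 h than at 48 or 96 h. KFH44846.1 was at 543, 702 and 446 FPKM in wild type and 12.7, 17.0 and 10.6 in overexpression, with log2 differences of -5.31, -5.29 and -5.27 at the 3 times. Its mean difference was -5.29 (SE 0.33, limma adjusted p = 0.00236). KFH46062.1 was at 983, 1354 and 852 FPKM in wild type and 32.8, 71.8 and 23.3 in overexpression, with log2 differences of -4.86, -4.22 and -5.13. Its mean difference was -4.74 (SE 0.29, limma adjusted p = 0.00236). In the knockout KFH44846.1 was at 382, 247 and 507 FPKM and KFH46062.1 at 911, 861 and 833, so both stood in the knockout well above every overexpression library.

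Few calls held whichever library was left out: 10 of the 219 lower genes and 1 of the 65 higher genes. The 10 lower genes are KFH44846.1, KFH46062.1, KFH40428.1, KFH41508.1, KFH45134.1, KFH48934.1, KFH48817.1, KFH45643.1, KFH44382.1 and KFH49032.1, and those outside the rule for named genes were picked after their values were seen. KFH40428.1 was at 257, 203 and 123 FPKM in wild type and 12.5, 16.3 and 13.6 in overexpression. KFH48934.1 was at 1340.1, 998 and 879 FPKM in wild type and 105, 155 and 109 in overexpression. KFH49032.1, the smallest of these falls with a log2 difference of -2.30, was at 139.9, 157 and 140.4 FPKM in wild type and 37.2, 26.4 and 24.4 in overexpression. In these 3 genes the knockout libraries too stood above all overexpression libraries, at 104 to 119 FPKM for KFH40428.1, 705 to 1035 for KFH48934.1 and 93.6 to 112 for KFH49032.1. KFH41508.1, KFH45134.1, KFH45643.1 and KFH44382.1 were lowest at 48 h in wild type and in overexpression, so their levels differed between strains while the later libraries stood higher in both.

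KFH48817.1 was the most abundant of these 10 genes, at 5809, 5564 and 3818 FPKM in wild type and 549, 1054 and 380 in overexpression. Its log2 difference was -3.04 (SE 0.31, limma adjusted p = 0.00874). In the knockout it was at 1613, 1580.1 and 743 FPKM, between the other strains at all 3 times. KFH45643.1 went the other way in the knockout, with 114, 860.1 and 1072 FPKM against 44.6, 169 and 209.8 in wild type and 3.54, 36.6 and 38.3 in overexpression.

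**Figure D3:**
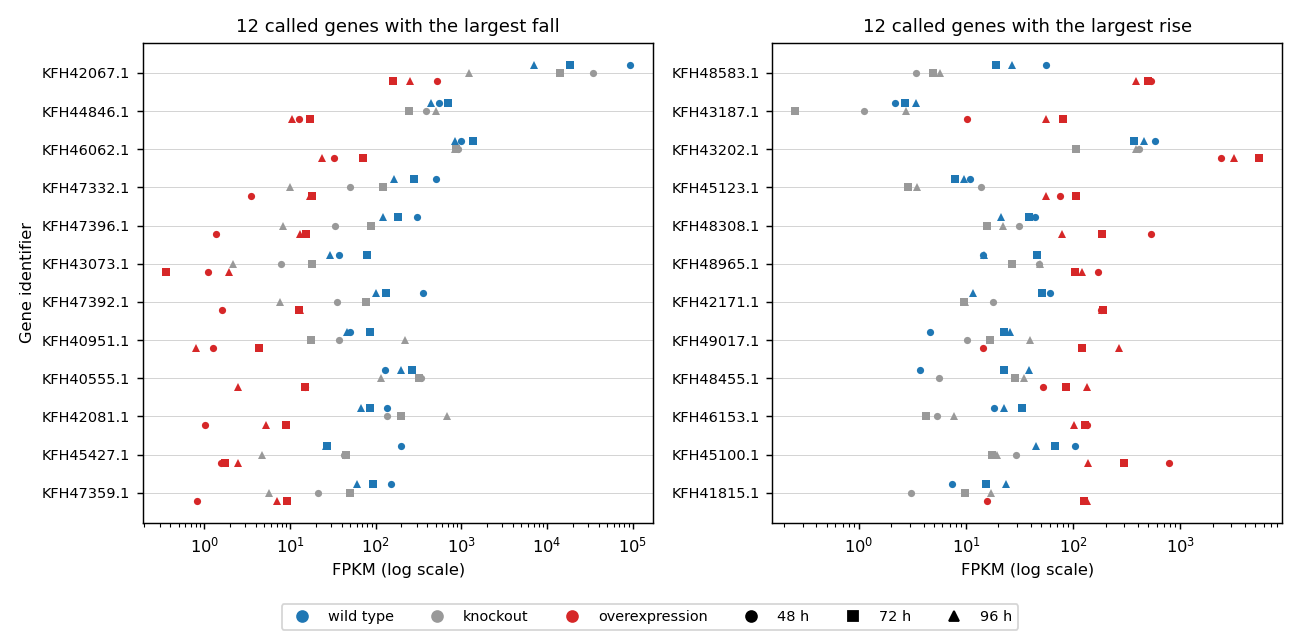
FPKM in each of the 9 libraries (log scale, x axis) for the 12 called genes with the largest fall (left) and the 12 with the largest rise (right) among genes above 0 in the 6 libraries with a mean of at least 10 FPKM; colour marks the strain and symbol the time. Red points lie left of the blue ones for every gene on the left, and right of them for most on the right, where KFH49017.1 and KFH41815.1 overlap between strains.

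Among the remaining 9 of the 12 largest falls, log2 differences ran from -4.62 to -4.16. In all 12, every overexpression library lay below every wild-type library, as did 8.48% of all tested genes. KFH43073.1 was at 37.7, 79.6 and 29.6 FPKM in wild type and 1.09, 0.359 and 1.92 in overexpression, and at 7.78, 17.9 and 2.17 in the knockout. KFH40951.1 was at 50.4, 86.1 and 46.8 FPKM in wild type, 1.26, 4.40 and 0.801 in overexpression, and 37.5, 17.6 and 221 in the knockout. KFH42081.1 was at 136, 86.4 and 68.2 FPKM in wild type and 1.03, 8.99 and 5.20 in overexpression. In the knockout it stood at 135, 199.6 and 687 FPKM, above wild type at 72 and 96 h. KFH40555.1 was the only one of the 12 with a gap that grew at each step, from -3.01 at 48 h to -4.06 at 72 h and -5.83 at 96 h. It went from 15.1 and 14.9 FPKM at 48 and 72 h to 2.49 FPKM at 96 h in overexpression, against 129, 263 and 198 FPKM in wild type. KFH45427.1 was at 195, 27.4 and 26.2 FPKM in wild type and 1.56, 1.74 and 2.50 in overexpression. Without either strain's 72 h library, 10 of the 12 calls ended in each case, all but KFH44846.1 and KFH46062.1, with adjusted p from 0.0588 to 0.175. Without wild type at 48 or 96 h 7 and 9 ended (0.0504 to 0.158), and without overexpression at 48 or 96 h 7 and 2 ended (0.0507 to 0.134). Without the knockout at 48 or 72 h 5 and 3 ended (0.0506 to 0.0713).

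Several of the largest falls carried close identifier numbers and moved in step. KFH47332.1, KFH47396.1, KFH47392.1 and KFH47359.1 were all among the 12. With KFH47396.1 as the reference, chosen after its values were seen, 11 genes including itself had a profile of r at least 0.95 with it over the 9 libraries in log2(FPKM + 1). All 11 had identifier numbers from 47332 to 47421, a range that holds 82 tested genes out of 8372. The last gene inside the limit had r = 0.963, and the first outside it, KFH43733.1, r = 0.947. The other members are KFH47342.1, KFH47344.1, KFH47349.1, KFH47400.1, KFH47411.1, KFH47415.1 and KFH47421.1. Whether these genes neighbour each other in the genome was not analysed here.

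Of the 9 libraries, overexpression at 48 h held the lowest level of each of the 11 genes except KFH47411.1, and all but KFH47400.1 and KFH47411.1 were under 10 FPKM there. In wild type their median was 301, 175 and 120 FPKM at the 3 times. In overexpression it was 2.61, 18.2 and 15.3 FPKM. In the knockout it was 37.9, 87.4 and 8.37 FPKM, below wild type at each time. The 3 strains thus had 3 different courses, falling in wild type, peaking at 72 h in the knockout, and rising from 48 to 72 h in overexpression. KFH47344.1, the most abundant, went through 1034, 589.5 and 356 FPKM in wild type and 6.16, 82.4 and 73.8 in overexpression. KFH47396.1 went through 301, 183 and 120.3 FPKM in wild type and 1.36, 15.2 and 13.1 in overexpression. KFH47400.1 changed least, with 237, 175 and 129.5 FPKM in wild type and 38.6, 85.9 and 61.2 in overexpression.

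Of these 11 genes, 8 were called lower, with log2 differences from -4.62 to -1.56. KFH47342.1, KFH47344.1 and KFH47421.1 were not called, at log2 differences of -3.78, -4.08 and -2.41 (limma adjusted p = 0.0534, 0.0829 and 0.109). Leaving out any 1 wild-type library, or overexpression at 48 or 72 h, ended all 8 calls (adjusted p 0.0507 to 0.175). Without the knockout at 48, 72 or 96 h 6, 6 and 1 ended (0.0505 to 0.0781), and without overexpression at 96 h 2 did (0.0638 and 0.0780). The 71 other tested genes with numbers in the range had a median log2 difference of 0.07, and 2 of them were called lower. The measure of likeness used all 9 libraries, so the shared course is what selected these genes. Identifier numbers did not enter the measure, but the reference is one of the falls noted above for close numbers. That all 11 genes lay in the range depends on this reference. KFH47396.1 had 10 other genes at r of at least 0.95, all 10 within 100 identifier numbers. KFH47332.1, KFH47349.1, KFH47392.1 and KFH47415.1 each had 12, of which 10 were within 100 numbers. Over only the 6 wild-type and overexpression libraries, 82 genes had r of at least 0.95 with KFH47396.1, of which 13 lay in the range. Over the 6 libraries of 72 and 96 h, 48 genes did, of which 11 lay in it, and at a minimum r of 0.90 over 9 libraries 27 did, of which 12 lay in it.

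**Figure D4:**
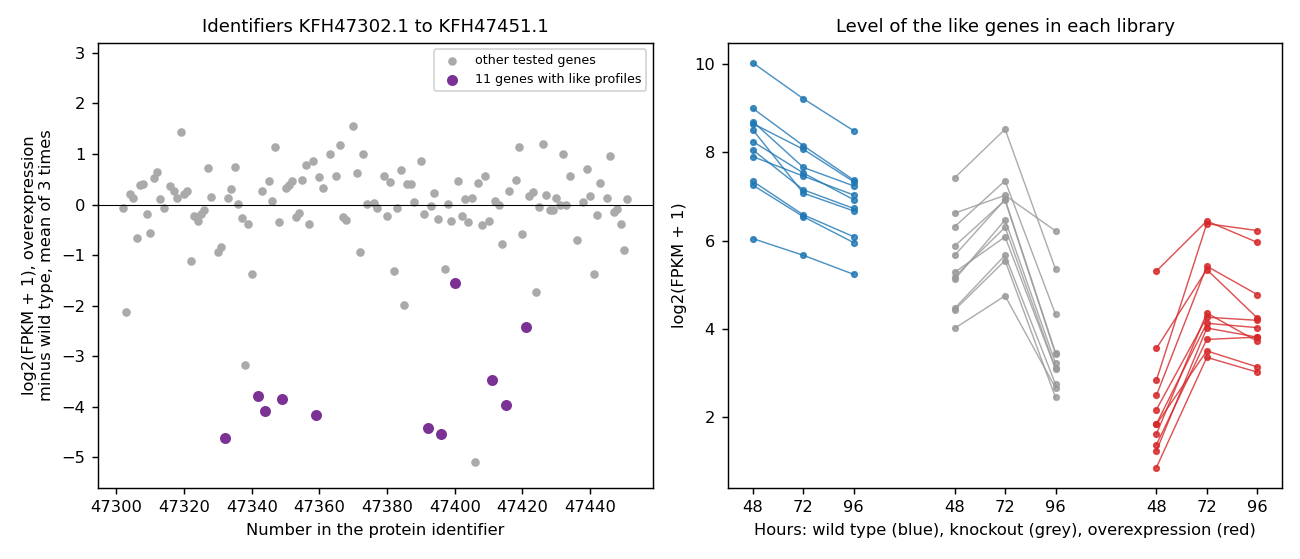
Left, the log2 difference, overexpression minus wild type, of tested genes by the number in their protein identifier around this range, with the 11 genes of like profile in purple; right, log2(FPKM + 1) of these genes at 48, 72 and 96 h in wild type (blue), knockout (grey) and overexpression (red), with 1 line per gene and strain. The purple genes lie from -4.62 to -1.56, while the 71 others between KFH47332.1 and KFH47421.1 have a median of 0.07.

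Such sets were uncommon among the called genes. Of the 219 lower genes, 11 (5.02%) had at least 3 partners with r of at least 0.95 whose identifier numbers lay within 100 of their own, and 8 of these belong to the set above. None of the 65 higher genes did, and of all tested genes 0.633% did. These shares are not on a like footing, since lower and higher genes had a median of 6 such partners at any identifier number and all tested genes 1. Of the lower genes 16 (7.31%) had a called lower gene at the next identifier number, beside 4.80% of all tested genes that had one next to them. Of the higher genes 0 had such a neighbour, beside 1.45% of all tested genes.

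The lower genes took up a large part of the wild-type transcriptome. In wild type their summed FPKM made up 14.5%, 8.29% and 6.77% of the library at 48, 72 and 96 h, and in overexpression 1.30%, 1.91% and 1.78%. KFH42067.1 alone made up 8.84%, 1.76% and 0.731% of the wild-type libraries. The other lower genes together made up 5.70%, 6.53% and 6.04% in wild type, with no such decline, and 1.25%, 1.90% and 1.75% in overexpression. In the knockout, whose levels played no part in the sign of the call, the lower genes with KFH42067.1 made up 7.55%, 7.999% and 6.54%. The higher genes made up 0.977%, 1.59% and 1.40% in overexpression, 0.315% to 0.346% in wild type and 0.255% to 0.312% in the knockout. The genes were chosen on these libraries, so the shares describe size and carry no test.

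**Figure D5:**
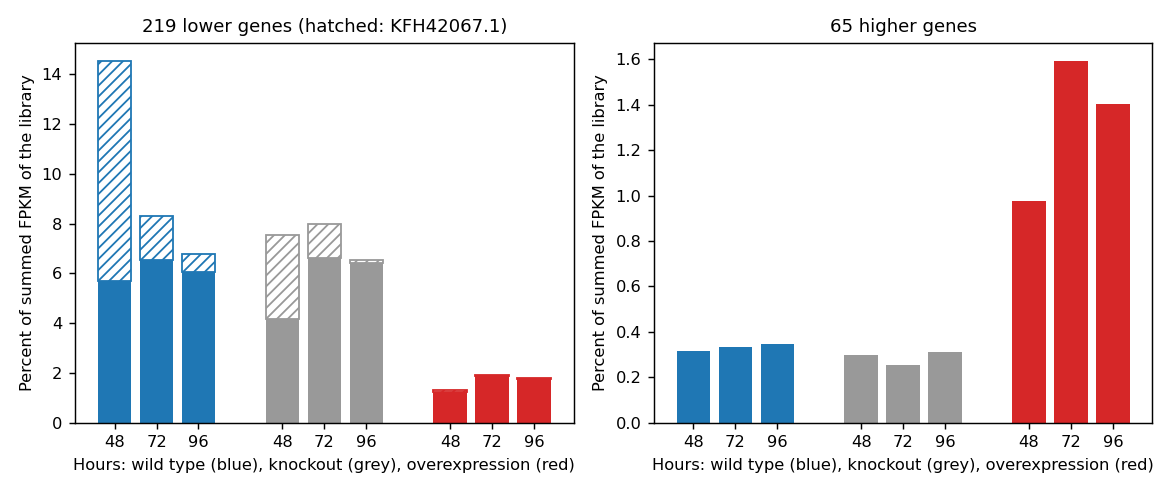
Percent of the summed FPKM of each library taken by the 219 lower genes (left, the hatched part is KFH42067.1) and the 65 higher genes (right), for wild type (blue), knockout (grey) and overexpression (red) at 48, 72 and 96 h. The lower genes take 6.77% to 14.5% in wild type and 1.30% to 1.91% in overexpression.

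Other abundant transcripts also fell. KFH48957.1 was at 11855, 7175 and 5403 FPKM in wild type and 3692, 2085 and 1247 in overexpression, with a log2 difference of -1.86 (SE 0.37, limma adjusted p = 0.0431). This call was lost without any 1 of the 9 libraries, with adjusted p from 0.0502 to 0.207. KFH46784.1 was at 1348, 2519.9 and 2215 FPKM in wild type and 477, 674 and 602 in overexpression, and KFH45586.1 at 855, 2730.2 and 2405 against 226, 791 and 641. Both rose between 48 and 72 h in each strain, at a lower level in overexpression. Their log2 differences were -1.76 and -1.87 (limma adjusted p = 0.0166 and 0.0222). Both calls ended when any 1 of the 72 or 96 h libraries of wild type or overexpression was left out, and the call of KFH45586.1 also ended without wild type at 48 h, with adjusted p up to 0.101 for KFH46784.1 and 0.112 for KFH45586.1.

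The lower genes were above average in level and in movement with time in libraries that did not set the sign of their call. In the knockout their median was 68.5, 91.0 and 81.7 FPKM at 48, 72 and 96 h, against 45.1, 41.7 and 42.4 FPKM over all tested genes. In the knockout, 40.2% of the lower genes changed at least 2-fold between 48 and 96 h, against 17.9% of all tested genes. For the higher genes the knockout medians were 32.8, 27.0 and 31.1 FPKM, and 26.2% changed at least 2-fold. The knockout libraries did enter the residual, so they had a part in which genes were called. The part of a gene's level or movement with time in whether it was called was not tested.

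Of the genes that rose, KFH48583.1 changed most among those above 0 in all 6 libraries. It was at 55.4, 19.1 and 26.7 FPKM in wild type, 537, 500.4 and 386 in overexpression, and 3.36, 4.87 and 5.72 in the knockout. The levels of the 3 strains did not overlap at any time. Its log2 difference was 3.90 (SE 0.37, limma adjusted p = 0.00743), and without overexpression at 72 h the call ended at 0.0524. KFH46153.1 showed the same order of strains, at 18.2, 33.2 and 22.3 FPKM in wild type, 133, 129 and 102 in overexpression and 5.32, 4.19 and 7.74 in the knockout. Its log2 difference was 2.29 (SE 0.30, limma adjusted p = 0.0154), and the call was lost without overexpression at 72 h and without wild type at 72 or at 96 h (up to 0.0867).

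KFH49082.1 was detected in overexpression alone. It was listed at 0 in all 3 wild-type and all 3 knockout libraries and stood at 24.8, 29.8 and 18.9 FPKM in overexpression at 48, 72 and 96 h. The limma test called it (adjusted p = 0.00236), also whichever library was left out, with adjusted p up to 0.0403. However, KFH49082.1 met the filter only through the overexpression libraries, and its values in the other strains are all 0. These p-values therefore add no support beyond the listed values. No fold is given against libraries listed at 0. The part of depth in this was not tested. In all, 11 tested genes were listed at 0 throughout wild type and at 1 FPKM or more throughout overexpression, and KFH49082.1 was the only one of them called. All 11 met the filter only through overexpression. All but KFH49082.1 were above 0 in the knockout at 48 h, estimated at 2.39 times the depth of wild type at 96 h. All 11 were listed at 0 in the knockout at 72 h, estimated at 0.829 times that depth. The part of depth in the count of 11 was not tested. Of the 11 genes KFH43280.1 had the highest mean FPKM in overexpression, and it was named after its values were seen. It stood at 83.0, 204 and 46.1 FPKM in overexpression and at 97.3, 0 and 71.3 in the knockout (limma adjusted p = 0.0686, and 0.0148 on the 6 libraries alone). In the knockout at 96 h KFH47040.1 had the identical value, 71.2819 FPKM, and the values of both genes may stand for few reads. The number of reads is not known, so these levels do not show an abundant transcript. In the reverse direction there was 1 gene, KFH45452.1, at 5.81, 2.87 and 2.74 FPKM in wild type and listed at 0 throughout overexpression (limma adjusted p = 0.0471). KFH45452.1 met the filter only through wild type. Its call was lost without any 1 library other than the knockout at 48 h (up to 0.192) and on the 6 libraries alone (0.0682).

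KFH43202.1 was the most abundant riser, at 580, 368 and 454 FPKM in wild type and 2371, 5455 and 3176 in overexpression. Its log2 difference was 2.91 (SE 0.55, limma adjusted p = 0.0381), and the knockout was at 407, 107 and 387 FPKM. Its call ended without any 1 wild-type library, without the knockout at 96 h or without overexpression at 72 or 96 h (up to 0.156). KFH43187.1 and KFH45123.1 also peaked at 72 h in overexpression, at 80.5 and 107 FPKM, and stood at most at 3.41 and 10.9 FPKM in wild type. KFH48308.1 and KFH45100.1 instead stood highest at 48 h in overexpression and declined after it, from 533 to 186 and 78.5 FPKM and from 779 to 298 and 136 FPKM. In wild type these went from 43.7 to 38.6 and 21.1 FPKM and from 103 to 67.4 and 44.8 FPKM. KFH49017.1 and KFH48455.1 rose through all 3 times in overexpression, the first from 14.4 to 120.5 and 269 FPKM and the second from 51.7 to 84.8 and 133 FPKM. In wild type they rose as well, from 4.60 to 22.7 and 25.6 FPKM and from 3.69 to 22.8 and 38.5 FPKM.

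KFH42171.1 held near 181 to 188 FPKM in overexpression while it fell from 61.2 to 51.0 and 11.7 FPKM in wild type. KFH48965.1 was at 169, 103 and 120 FPKM in overexpression against 14.3, 46.2 and 14.7 in wild type. KFH41815.1 was at 15.6, 127 and 134 FPKM in overexpression against 7.35, 15.2 and 23.7 in wild type, so the strains overlapped through the 48 h library. In 10 of the 12 largest rises every overexpression library lay above every wild-type library, as did 11.1% of all tested genes. None of the 12 calls was left without overexpression at 72 h (adjusted p 0.0524 to 0.192). Without wild type at 48, 72 or 96 h 9, 10 and 11 of them ended (0.0510 to 0.169), and without overexpression at 96 or 48 h 8 and 1 ended (0.0503 to 0.137). Without the knockout at 48, 72 or 96 h 2, 1 and 5 ended (0.0506 to 0.0648). Among the most abundant risers were also KFH43813.1, at 63.1, 146 and 282 FPKM in wild type and 213, 643 and 491 in overexpression, and KFH43506.1, at 158, 122 and 138 against 561, 463 and 299.9. Their calls (limma adjusted p = 0.0399 and 0.0166) ended without 7 and 4 of the 9 libraries, with adjusted p up to 0.174 and 0.0948. Those of KFH43813.1 were wild type at 48 and 72 h, the knockout at 72 and 96 h and all overexpression libraries, and those of KFH43506.1 all wild-type libraries and overexpression at 72 h.

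Whether the gap between strains widened or narrowed with culture time was tested as a difference of linear slopes per 24 h. Of 8372 genes, the limma test called 0 in either direction. It gave 981 an unadjusted p under 0.05, 321 with a higher and 660 with a lower slope in overexpression. On the 6 libraries alone it called 1 gene with a higher slope, KFH47040.1, and 2 with a lower slope, KFH41450.1 and KFH40551.1. KFH47040.1 and KFH41450.1 are listed at 0 in some of these libraries. Among the 219 lower genes the gap was narrower at 96 h than at 48 h in 129 and wider in 90, with a median change of -0.21 on the log2 scale. Among the 65 higher genes it was narrower in 32 and wider in 33. No like count was made over all tested genes, so these counts cannot be read as a trait of the called genes.

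The genes with the smallest slope p are given as values, since none was called. In overexpression KFH40551.1 fell from 3667 to 393 and 67.5 FPKM, while wild type stood at 147, 235 and 281, a slope difference of -3.34 per 24 h on the log2 scale (limma adjusted p = 0.107). The knockout values also declined, from 4329 to 920.02 and 249.9 FPKM. KFH47370.1 had overexpression levels of 689, 193 and 89.5 FPKM against 69.2, 64.7 and 105 in wild type, a slope difference of -1.76 (limma adjusted p = 0.264). KFH47006.1 had overexpression levels of 88.1, 139 and 367 FPKM against 3351, 831 and 551 in wild type, a slope difference of 2.32 (limma adjusted p = 0.264). KFH46013.1 had overexpression levels of 89.3, 175 and 314 FPKM against 506, 443 and 248 in wild type, a slope difference of 1.41 (limma adjusted p = 0.264).

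Most of the top transcripts were not called. Of the 10 genes with the highest mean FPKM over the 6 libraries, KFH42067.1 was called, and the other 9 had log2 differences from -0.69 to 0.64 with limma adjusted p from 0.479 to 0.965. KFH46859.1 was at 9872, 40273 and 30894.9 FPKM in wild type and 21551, 20433 and 13857 in overexpression. KFH45358.1 was at 5248, 9548 and 7162 FPKM in wild type and 7146, 13702 and 13873 in overexpression, a log2 difference of 0.64 (SE 0.45). KFH48826.1 was at 4912, 8117 and 6643 FPKM in wild type and 6794, 6803 and 6416 in overexpression, a log2 difference of 0.05 (SE 0.42). With SEs from 0.39 to 0.67, a missed threshold does not show equal levels.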

How the data were processed

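RNA was measured in mycelium of 3 strains at 48, 72 and 96 h. Per the labels' protocols, the frozen tissue gave Trizol RNA, and Illumina libraries were made from its polyadenylated fraction. Named in the submitters' processing notes are CASAVA and HISAT2 2.0.5, with no role given. For the build, the gene annotation and the counting of reads, nothing is given in the sources used here. Each gene and library has 1 deposited value, and no header names the unit. The deposited values were treated as FPKM from their decimals, unequal sums and gene-dependent steps. All 9 columns matched a library by name.

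A gene was kept when at least 3 of the 6 wild-type and overexpression libraries had 1 FPKM or more, which left 8372 of 8899, as log2(FPKM + 1). limma 3.58.1 in R 4.3.3 fitted strain and time as factors to all 9 libraries, with an intensity trend. The strain difference equals the mean of the 3 time-paired differences, and the knockout libraries add only to the residual, which has 4 degrees of freedom plus 3.3 from the prior. For slopes these are 2 and 3.79. Tests were two-sided, adjusted by Benjamini-Hochberg at 0.05. Libraries were paired because the labels give the same culture times in each strain. The scripts were tested on simulated data.

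Relative depth came from a likelihood over whole-read ratios at genes under 2 FPKM. Depth itself is not stated, so no counting intervals are given. Alternatives changed the pseudocount, filter, scaling, trend, pairing and libraries.

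Named genes, above 0 in the 6 libraries with a mean of at least 10 FPKM, were the 12 largest called differences in each direction, the 5 most abundant called genes in each direction, the 2 smallest slope p-values in each direction where no slope was called, and the 10 most abundant genes. Called genes listed at 0 in 1 strain and at 10 or more in the other were added. The comparison, the lists and the rules were chosen with earlier results of these data known. Lists of named genes for cephalosporin synthesis, its regulators, conidiation, pigment, stress and ribosomal proteins matched 0 identifiers and gave no result.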

Additional observations from a re-analysis of the deposited data

Results flagged for a closer look

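In 3 of the named genes overexpression stood at least 2-fold above wild type at 48 h and at least 2-fold below it at 96 h. Over all 8372 tested genes 86 did so, and 48 went from below to above by the same sizes. KFH40551.1 was named for its small slope p, which favours such a reversal. Each time has 1 library per strain, and the slope test called none of the 3 with all 9 libraries. KFH40551.1 had log2 differences of 4.63 at 48 h and -2.04 at 96 h, KFH46859.1 of 1.13 and -1.16, and KFH41657.1 of 1.48 and -1.03. KFH41657.1 was at 40691 FPKM in overexpression at 48 h against 14611 in wild type, and at 3352 against 6823 FPKM at 96 h.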

How the results depend on the processing

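The alternatives never turned the direction of a called gene. This was nearly fixed in advance, since every called gene had the same sign at all 3 times. On the 6 libraries alone 40 genes were higher, and 1 and 2 genes had a higher and a lower slope. With equal totals 131 were lower, and with no replicate block, that is without pairing by time, 13 were higher and 54 lower. Without all 72 h libraries 1 gene was higher and 2 lower, and without all 96 h libraries 4 and 17; such fits keep fewer samples. Leaving out 1 library gave 1 to 80 higher and 12 to 204 lower genes, and 0 to 1 genes with a higher and 0 to 1 with a lower slope. Pseudocount, filters, median-of-ratios scaling, quantile normalisation, no trend and leaving out all 48 h libraries kept both strain counts within 1.5 times. A like count need not mean the same genes. Without all 48 h libraries 246 genes were called, of which 140 were among the 284 of the main fit. Of the 31 called named genes, 18 lost the call there. Equal totals moved the median of all genes from 0.0822 to 0.173, with 72.4% of calls lower instead of 77.1%. Median-of-ratios scaling moved this median the other way, to 0.0234, with 80.1% of calls lower. Of the 31 called named genes, 27 lost the call without overexpression at 72 h, 25 without wild type at 72 h, 8 on the 6 libraries alone and 29 without all 72 h libraries. The cause was not tested. Precision at low levels is limited by depth, which was estimated to be lower in wild type. The part of depth in the lost calls was not tested.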
